A study of Mus musculus with 8 samples.

Results

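The 50 genes described here build and run the machinery of mitosis: the cyclins and kinases that start it, the spindle checkpoint, the kinetochore, the kinesin motors, the chromosomal passenger complex, the proteins of the spindle midzone and the cleavage furrow, condensin, the regulators of anaphase and the transcription factor Foxm1. They were taken by symbol from a written list, and all 50 were found, once each, among the 54532 genes of the count table. All 50 also passed the filter on low counts that left 15470 genes for testing. RNA had been sequenced from wild-type mouse embryonic fibroblasts (MEFs, primary cells grown from embryo tissue) on day 4 of culture in 1 of 4 media, with 2 libraries for each medium. The first group stayed in fibroblast medium and is called MEF. The other 3 groups all received CFAE, which stands for CHIR99021 (a GSK-3 inhibitor that turns on Wnt signalling), Forskolin (which raises cyclic AMP), AM580 (a retinoic acid receptor agonist) and EPZ04777 (as the labels spell a DOT1L inhibitor). CFAE+8 also held A-83-01, CFAE+8+MSC held A-83-01 and MSC2530818, an inhibitor of the Mediator kinases CDK8 and CDK19, and CFAE+6 held E-616452 in place of A-83-01. A-83-01 and E-616452 are both inhibitors of the TGF-beta type I receptor. No dose, passage or embryonic day is given in the labels. The series screened chemicals for their effect on cell reprogramming.

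In a dividing cell, Cdk1 with cyclins A and B drives entry into mitosis, kinetochores form on centromeres and grip the spindle, and the spindle checkpoint holds back the anaphase-promoting complex (APC/C) until every chromosome is attached. The APC/C with Cdc20 then frees separase to split the sister chromatids, and the chromosomal passenger complex, the central spindle kinesins and anillin guide the division of the cell. Most of these genes are transcribed late in the cell cycle. In resting cells the DREAM complex holds them off, and in G2 the MuvB core with B-Myb and Foxm1 turns them on, in large part through a promoter element called the CHR (cell cycle genes homology region) and through CCAAT boxes, which NF-Y binds. Fibroblast cultures hold cells in all phases. In RNA from whole cultures, more cells in G2 and mitosis cannot be told apart from more of these transcripts in each cell.

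Library totals ran from 10958430 to 11913143 counts. Levels are given as CPM, counts scaled to a common library size. Where genes are compared with each other, RPKM is given, which also divides by the deposited gene length. For most genes that length is all annotated exons merged, which can exceed the length of any single transcript. Whether the replicate libraries are from different cultures is not recorded, and the p-values therefore reflect the spread among these samples alone, which may be technical. Each change is a log2 fold change, given ± SE, from edgeR's quasi-likelihood test on all 8 libraries, with Benjamini-Hochberg adjustment over the 15470 genes, and a gene is said to rise or fall only at an adjusted p under 0.05. Other features of the cultures moved with the media. The summed level of 10 fibroblast markers was 35370.4 to 36339 CPM in MEF and 13311 to 13380.4, 13622 to 14029 and 12372 to 12845 CPM in CFAE+8, CFAE+8+MSC and CFAE+6. It was the highest of the 4 marker sums in every group. Of the 10, 3 rose and 7 fell in each cocktail against MEF. The sum of 7 macrophage markers was 166 to 168 CPM in MEF and 35.9 to 37.1, 20.8 to 21.1 and 18.7 to 20.3 in the 3 cocktails in the same order. Of the 6 tested, 5, 5 and 6 fell, and Fcgr1 was listed at 0 in every cocktail library. For 6 epithelial markers the sums were 19.3 to 22.7, 10.8 to 11.5, 40.9 to 44.9 and 37.1 to 37.5 CPM, and 4 of 6 rose both in CFAE+8+MSC and in CFAE+6 against CFAE+8. For 5 endothelial markers they were 16.3 to 17.2, 24.9 to 27.1, 52.1 to 54.3 and 54.95 to 60.9 CPM, with 2 of the 3 tested higher in the same comparisons and Tie1 listed at 0 in every group but CFAE+6. Mitochondrial transcripts took 1.21 to 1.24% of counts in MEF libraries and 1.96 to 2.004%, 2.08 to 2.201% and 2.08 to 2.21% in the cocktails in that order. What these shifts contribute to the values below was not tested.

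Most of the mitotic genes were higher in all 3 cocktails than in fibroblast medium. Summed over the 50 genes, the level was 1905 and 1922 CPM in MEF, 3107 and 3091 in CFAE+8, 2807 and 2785 in CFAE+8+MSC and 2646 and 2566 in CFAE+6, so the groups did not overlap. In CFAE+8 against MEF 44 of the 50 genes rose and 0 fell, while 30.8% of all genes tested rose and 31.3% fell. The median change of the 50 was 0.72 on the log2 scale, or 1.65-fold, against 0.012 over all genes, and the members ran from -0.01 to 1.47. In 47 of the 50 both CFAE+8 libraries lay above both MEF libraries, an order that 40.4% of all genes tested showed. The 6 genes that did not pass were Bub3, Prc1, Anln, Nusap1, Smc4 and Cdc20. In CFAE+8+MSC against MEF 40 rose and 1 (Nusap1) fell, with 31.9% and 32.2% of all genes doing so, and the median was 0.62. In CFAE+6 against MEF 37 rose and 1 (Anln) fell, with 31.6% and 31.5% of all genes, and the median was 0.50. The 3 comparisons share the MEF libraries. Tested against a change of 1.2-fold rather than 0, 40 of the 50 were higher and 0 lower in CFAE+8, beside 22.6% and 24.2% of all genes. By the same test 32 were higher and 1 lower in CFAE+8+MSC (all genes 23.4% and 25.0%), and 29 and 0 in CFAE+6 (all genes 23.3% and 24.4%).

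**Figure D1:**
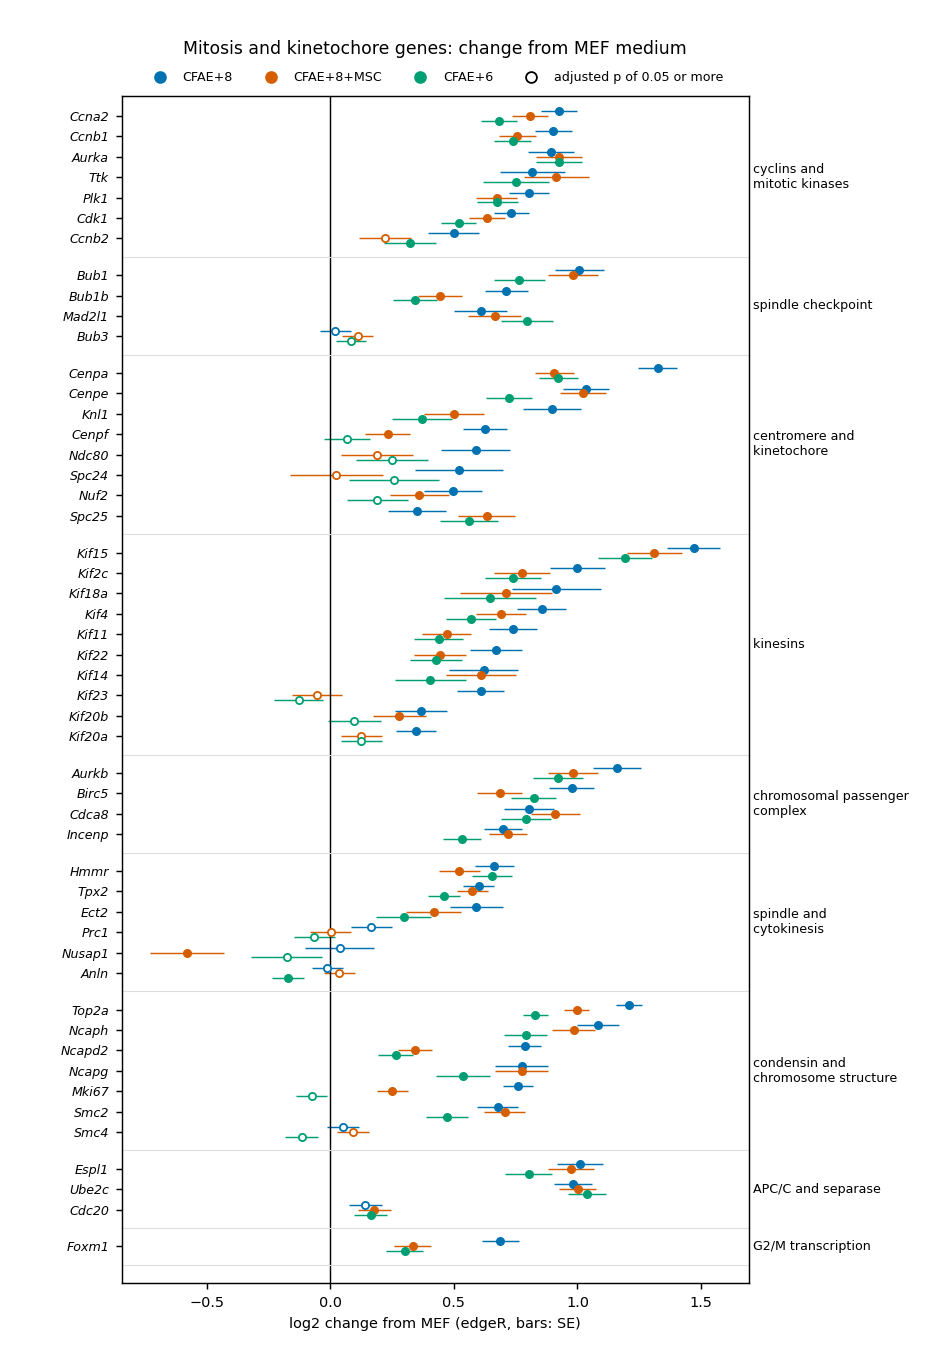
Log2 change from MEF (horizontal axis) of each of the 50 genes, grouped by role, in CFAE+8 (blue), CFAE+8+MSC (orange) and CFAE+6 (green), with n = 2 libraries per group. Bars are the SE from edgeR and open points did not pass an adjusted p of 0.05; the blue points run from -0.01 for Anln to 1.47 for Kif15.

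The changes varied among the genes. The SD of the 50 log2 changes was 0.33 in CFAE+8 against MEF, while the median SE of a single change was 0.092, and 8 of the 50 rose by at least 1 on the log2 scale, as did 11.4% of all genes. Of the 6 genes that did not pass, 3 belong to the spindle and cytokinesis genes. In group means, 38 of the 50 genes were highest in CFAE+8, a further 10 were highest in CFAE+8+MSC and 2 in CFAE+6, and 44 were lowest in MEF. The single most frequent order, CFAE+8 above CFAE+8+MSC above CFAE+6 above MEF, held for 27 genes, although the step from CFAE+8+MSC to CFAE+6 passed the test for 5 of the 50. These ranks and orders were not counted over all genes tested. Per deposited gene length, the highest of the 50 in every group was Cdc20, the APC/C activator, at 37.3 RPKM in MEF and 41.2 in CFAE+8. The lowest was Kif18a, a kinesin that limits the swing of chromosomes at the spindle equator, at 0.627 RPKM in MEF and 1.18 in CFAE+8. Both ranks depend on the merged exon length, which was 1868 bases for Cdc20 and 9832 for Kif18a.

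The promoters of these genes carried the elements described above more often than the windows of all genes. Windows from 250 bases before to 50 bases after the annotated start were available from RefSeq (build GRCm38.p6) for 42 of the 50 genes, in 45 windows. The CHR was searched as TTTGAA or TTCGAA and the other box as CCAAT, both on either strand, so that TTCAAA and ATTGG are the same elements read from the opposite strand. A CHR stood in 82.2% of the member windows and in 19.2% of the 32851 windows of all genes. CCAAT stood in 73.3% and 37.4%, and both together in 68.9% and 7.52%. The 2 kinds of match overlapped in 1 member window. Within 50 bases of the start, a distance chosen after the positions were seen, a CHR stood in 71.1% of member windows and 5.31% of all windows. Bases just before the start are shown for 6 genes with different changes: Kif15, Cdk1, Top2a and Ube2c rose in CFAE+8, Mki67 fell back the most in CFAE+6, and Cdc20 did not pass in CFAE+8. Each is printed 5′ to 3′ on the strand of the gene, with capitals for the CHR and CCAAT matches.
Kif15 (chr9:122950931-122951075, + strand): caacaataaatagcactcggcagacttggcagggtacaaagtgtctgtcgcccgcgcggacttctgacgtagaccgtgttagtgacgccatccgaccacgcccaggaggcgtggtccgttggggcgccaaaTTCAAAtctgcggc
Cdk1 (chr10:69352913-69353062, - strand): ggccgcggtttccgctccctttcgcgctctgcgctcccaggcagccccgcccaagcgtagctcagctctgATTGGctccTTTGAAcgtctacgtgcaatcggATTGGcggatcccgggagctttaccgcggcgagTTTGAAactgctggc
Top2a (chr11:99024190-99024389, - strand): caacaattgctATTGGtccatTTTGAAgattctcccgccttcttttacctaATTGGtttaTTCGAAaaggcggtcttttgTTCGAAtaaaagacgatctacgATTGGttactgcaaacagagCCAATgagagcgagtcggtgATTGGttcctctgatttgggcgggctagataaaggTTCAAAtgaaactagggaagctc
Ube2c (chr2:164769779-164769927, + strand): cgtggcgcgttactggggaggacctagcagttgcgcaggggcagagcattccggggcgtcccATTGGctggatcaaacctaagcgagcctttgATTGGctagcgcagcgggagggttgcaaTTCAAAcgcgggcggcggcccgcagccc
Mki67 (chr7:135716380-135716579, - strand): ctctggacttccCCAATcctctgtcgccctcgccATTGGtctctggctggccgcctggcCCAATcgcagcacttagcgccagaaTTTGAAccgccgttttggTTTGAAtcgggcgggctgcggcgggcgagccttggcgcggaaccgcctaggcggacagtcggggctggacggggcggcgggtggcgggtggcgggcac
Cdc20 (chr4:118437344-118437493, - strand): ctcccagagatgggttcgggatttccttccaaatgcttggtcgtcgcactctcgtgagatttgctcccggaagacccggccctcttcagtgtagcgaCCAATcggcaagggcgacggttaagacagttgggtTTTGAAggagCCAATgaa

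Cdc20, whose change in CFAE+8 did not pass the test, and Cdk1 and Ube2c, which rose, all have a CHR just before the RefSeq start together with CCAAT boxes. By the deposited coordinates, that CHR lies inside the gene for Cdk1 (coordinates below) and for Ube2c. Top2a has the most matches of the 6. A match is a string of letters, not a bound site. Among the 42 genes, the 34 with a CHR in a window had a median change of 0.74 in CFAE+8 against MEF (from -0.01 to 1.47), and the 8 without one (Ccnb1, Mad2l1, Cenpe, Nuf2, Kif18a, Birc5, Nusap1 and Ncaph) had a median of 0.91 (from 0.04 to 1.08). In CFAE+6 against CFAE+8 both medians were -0.24.

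**Figure D2:**
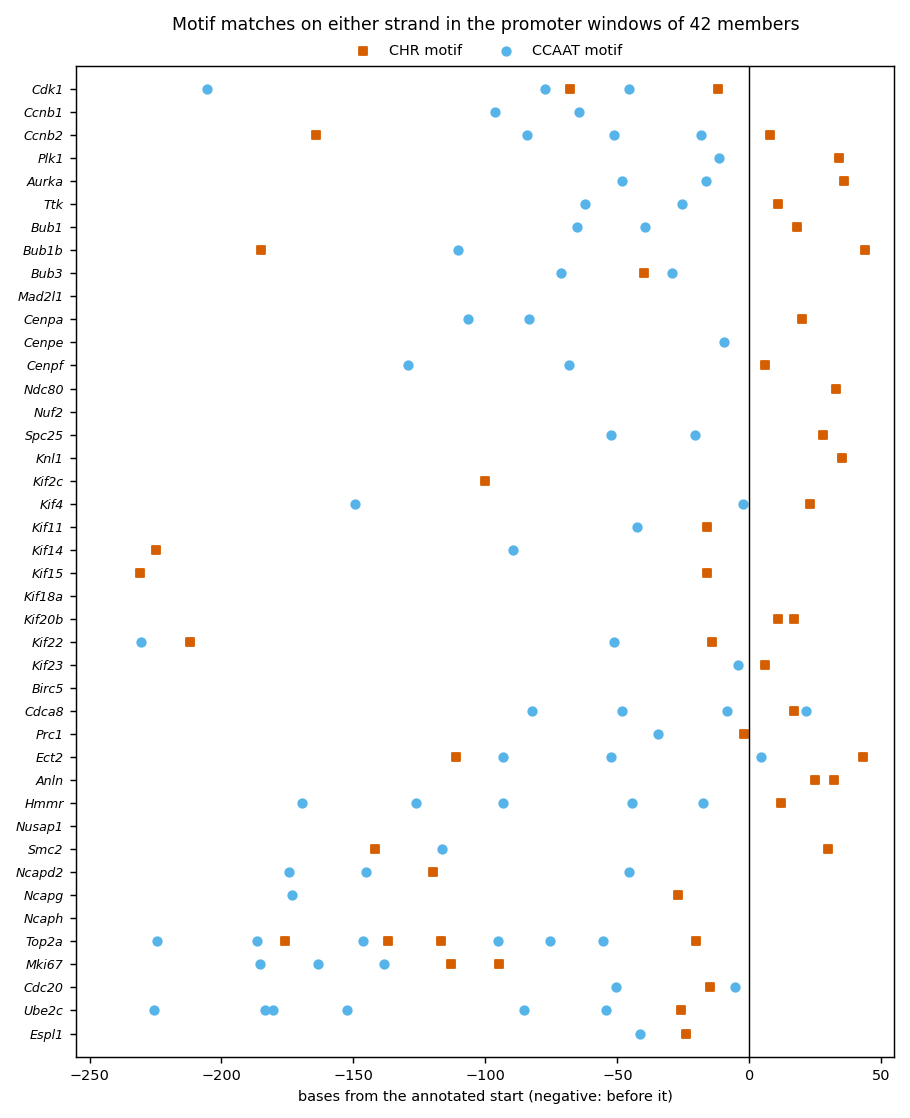
Position of each CHR match (orange squares) and CCAAT match (blue circles), in bases from the annotated RefSeq start (horizontal axis, negative before it), in 1 promoter window for each of 42 genes. The orange squares gather around the start, and CCAAT matches lie mostly before it; 71.1% of member windows have a CHR within 50 bases of the start.

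All 7 cyclins and mitotic kinases rose in CFAE+8 (30.8% of all genes) and in CFAE+6 (31.6%) against MEF. In CFAE+8+MSC 6 of 7 rose (31.9% of all genes). Cdk1 (ENSMUSG00000019942, mm10 chromosome 10, 69335146 to 69352938, reverse strand), the kinase that drives entry into mitosis, was at 49.99 and 49.6 CPM in MEF, 82.97 and 82.3 in CFAE+8, 80.02 and 74.4 in CFAE+8+MSC and 71.5 and 71.1 in CFAE+6. The CFAE+8 libraries lay highest and the MEF libraries lowest, with no overlap between them. Its change from MEF was 0.73 ± 0.071 (adjusted p = 3.24e-10) in CFAE+8, 0.63 ± 0.072 (adjusted p = 6.88e-09) in CFAE+8+MSC and 0.52 ± 0.072 (adjusted p = 3.12e-07) in CFAE+6. Ccna2, cyclin A2, rose the most of the 7 in CFAE+8, by 0.92 ± 0.072 (adjusted p = 3.23e-12), from 43.5 and 43.8 CPM in MEF, 81.9 and 83.7 in CFAE+8, 73.9 and 78.9 in CFAE+8+MSC and 69.5 and 70.5 in CFAE+6. Its exons overlap those of Exosc9 on the opposite strand over 12.5% of their length, and since the library kit does not mark strand its counts are uncertain to that extent. Ccnb2, cyclin B2, moved least. It was at 24.8 and 24.00 CPM in MEF, 35.8 and 33.2 in CFAE+8, 29.97 and 26.9 in CFAE+8+MSC and 31.7 and 29.3 in CFAE+6, and its change was 0.50 ± 0.10 (adjusted p = 1.16e-04) in CFAE+8 and 0.22 (95% interval 0.00 to 0.44, adjusted p = 0.0701) in CFAE+8+MSC. In CFAE+6 Ccnb2 rose by 0.32 ± 0.10 (adjusted p = 0.00871), a call lost without MEF replicate 2 (adjusted p = 0.0621) or CFAE+6 replicate 1 (adjusted p = 0.0714). Ttk, the checkpoint kinase also called Mps1, was at 11.5 and 11.9 CPM in MEF, 19.2 and 22.1 in CFAE+8, 22.4 and 21.7 in CFAE+8+MSC and 20.01 and 19.4 in CFAE+6. Every cocktail library stood above both MEF libraries, and the change was 0.82 ± 0.13 (adjusted p = 4.08e-06) in CFAE+8. Ccnb1, Plk1 and Aurka rose by 0.80 to 0.90 in CFAE+8.

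Of the 4 spindle checkpoint genes, 3 rose in each cocktail against MEF (30.8% to 31.9% of all genes) and Bub3 did not pass in any. Bub1, a kinase of the checkpoint at kinetochores, was at 19.9 and 19.7 CPM in MEF, 40.03 and 39.5 in CFAE+8, 41.2 and 36.9 in CFAE+8+MSC and 33.9 and 33.3 in CFAE+6. Its 2 MEF libraries were almost equal, and the CFAE+8 libraries were about 2.01-fold higher (1.01 ± 0.10, adjusted p = 5.75e-10). Bub1b, which encodes the BubR1 protein that binds and inhibits Cdc20, was at 30.3 and 32.7 CPM in MEF, 50.7 and 52.6 in CFAE+8, 41.6 and 44.2 in CFAE+8+MSC and 39.5 and 40.4 in CFAE+6. It rose by 0.71 ± 0.087 (adjusted p = 3.12e-08) in CFAE+8 and by 0.34 ± 0.090 (adjusted p = 0.00149) in CFAE+6. Bub3, the small partner that carries Bub1 and BubR1 to kinetochores, was the most abundant of the 4 by CPM at 99.7 and 91.6 CPM in MEF, 98.1 and 95.8 in CFAE+8, 102 and 105 in CFAE+8+MSC and 101 and 101 in CFAE+6. The MEF libraries enclosed the CFAE+8 libraries, and the change was 0.02 (95% interval -0.11 to 0.15, adjusted p = 0.799). Mad2l1, whose protein Mad2 is the core checkpoint signal, rose by 0.61 ± 0.11 (adjusted p = 1.23e-05) in CFAE+8.

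All 8 centromere and kinetochore genes rose in CFAE+8 against MEF (30.8% of all genes), 6 did in CFAE+8+MSC (31.9%) and 4 in CFAE+6 (31.6%). Among these, Cenpf and Nuf2 in CFAE+8+MSC and Knl1 in CFAE+6 lost their call when some single libraries were left out. DESeq2 did not call Cenpf in CFAE+8+MSC either (adjusted p = 0.105). Cenpa (ENSMUSG00000029177, mm10 chromosome 5, 30666777 to 30674830, forward strand), the histone H3 variant that marks centromeres, had the largest change of the 8. It was at 30.9 and 31.6 CPM in MEF, 77.9 and 78.5 in CFAE+8, 59.2 and 57.9 in CFAE+8+MSC and 59.4 and 59.1 in CFAE+6. Both libraries of each group lay close together, with CFAE+8 on top, and the change in CFAE+8 was 1.32 ± 0.078 (adjusted p = 4.03e-15), or 2.504-fold. Cenpe, the kinetochore motor that brings chromosomes to the spindle equator, was at 36.3 and 45.98 CPM in MEF, 81.9 and 86.8 in CFAE+8, 84.96 and 82.3 in CFAE+8+MSC and 74.5 and 61.6 in CFAE+6. It rose by 1.03 ± 0.092 (adjusted p = 5.24e-11) in CFAE+8, and the 2 libraries of CFAE+6 and of MEF differed more than those of the other groups. The NDC80 complex, which binds microtubule ends directly, has its 4 subunits among the members. Ndc80 rose by 0.59 ± 0.14 (adjusted p = 5.64e-04) and Nuf2 by 0.50 ± 0.12 (adjusted p = 6.12e-04) in CFAE+8. Spc25 moved least of the 8 there, at 17.7 and 16.1 CPM in MEF, 21.4 and 21.6 in CFAE+8, 26.7 and 25.7 in CFAE+8+MSC and 24.2 and 25.7 in CFAE+6, with a change of 0.35 ± 0.12 (adjusted p = 0.0116) that did not pass without MEF replicate 2 (adjusted p = 0.108). It was the only one of the 8 with its highest mean in CFAE+8+MSC. Spc24, at 8.65 and 8.34 CPM in MEF, 11.9 and 12.5 in CFAE+8, 7.53 and 9.77 in CFAE+8+MSC and 8.99 and 11.3 in CFAE+6, was among the least abundant members and rose by 0.52 ± 0.18 (adjusted p = 0.0125) in CFAE+8. That call was lost without MEF replicate 2 (adjusted p = 0.0691) or CFAE+8 replicate 2 (adjusted p = 0.0611), and DESeq2 did not make it for Spc24 (adjusted p = 0.0618) or Spc25 (adjusted p = 0.0605). Knl1, the scaffold that recruits the Bub proteins, was at 15.6 and 18.3 CPM in MEF, 32.01 and 31.2 in CFAE+8, 22.7 and 25.3 in CFAE+8+MSC and 22.9 and 20.97 in CFAE+6 and rose by 0.90 ± 0.12 (adjusted p = 9.85e-08) in CFAE+8. Cenpf, a large protein of the outer kinetochore, was at 31.6 and 33.98 CPM in MEF, 51.3 and 49.95 in CFAE+8, 39.4 and 37.5 in CFAE+8+MSC and 36.1 and 32.6 in CFAE+6. It rose by 0.63 ± 0.089 (adjusted p = 4.62e-07) in CFAE+8, whereas its change in CFAE+6 was 0.07 (95% interval -0.12 to 0.26, adjusted p = 0.544).

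The 10 kinesins, motors that move along or take apart microtubules, all rose in CFAE+8 against MEF, as did 30.8% of all genes. Kif15 (ENSMUSG00000036768, mm10 chromosome 9, 122951046 to 123018733, forward strand), a motor that helps hold the spindle poles apart, had the largest change of all 50 genes. It was at 17.2 and 15.3 CPM in MEF, 46.1 and 43.8 in CFAE+8, 37.4 and 43.2 in CFAE+8+MSC and 39.1 and 35.1 in CFAE+6, with every cocktail library above both MEF libraries, and the change in CFAE+8 was 1.47 ± 0.11 (adjusted p = 8.31e-13), or 2.77-fold. Kif14, which acts at the midbody in cytokinesis, was at 13.4 and 13.8 CPM in MEF, 22.1 and 19.8 in CFAE+8, 18.7 and 22.9 in CFAE+8+MSC and 19.8 and 16.3 in CFAE+6 and rose by 0.62 ± 0.14 (adjusted p = 3.34e-04) in CFAE+8. Kif20a, a motor that carries the passenger complex to the midzone, had the smallest change of the 10. It was at 47.1 and 52.9 CPM in MEF, 64.2 and 63.1 in CFAE+8, 55.9 and 53.3 in CFAE+8+MSC and 58.2 and 50.9 in CFAE+6, and rose in CFAE+8 by 0.35 ± 0.082 (adjusted p = 5.18e-04). In the annotation used for overlaps, its exons overlap those of Cdc23 on the opposite strand over 29.3% of their length. That annotation gives Kif20a 4338 exon bases, against a deposited length of 3796. The counts of Kif20a are therefore uncertain, and Cdc23 also rose (0.22, adjusted p = 0.00429). Kif23, a subunit of the centralspindlin complex that bundles midzone microtubules, was at 30.2 and 29.04 CPM in MEF, 46.7 and 43.6 in CFAE+8, 30.1 and 26.95 in CFAE+8+MSC and 26.7 and 27.5 in CFAE+6. Here only the CFAE+8 libraries stood apart from the rest: the change from MEF was 0.61 ± 0.094 (adjusted p = 2.06e-06) in CFAE+8, -0.05 (95% interval -0.26 to 0.15, adjusted p = 0.653) in CFAE+8+MSC and -0.13 (95% interval -0.33 to 0.08, adjusted p = 0.273) in CFAE+6. The other 6 (Kif2c, Kif4, Kif11, Kif18a, Kif20b and Kif22) rose by 0.37 to 1.00 in CFAE+8. Kif4 overlaps Pdzd11 on the opposite strand over 15.1% of its exons, and Pdzd11 fell (-0.84, adjusted p = 9.97e-07).

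All 4 genes of the chromosomal passenger complex, which corrects faulty attachments and later triggers cytokinesis, rose in every cocktail (30.8% to 31.9% of all genes). Aurkb, its kinase, was at 20.3 and 18.4 CPM in MEF, 44.3 and 42.2 in CFAE+8, 38.8 and 37.6 in CFAE+8+MSC and 37.2 and 36.1 in CFAE+6 and rose by 1.16 ± 0.10 (adjusted p = 1.99e-11) in CFAE+8. Birc5, which encodes survivin, was at 25.2 and 24.9 CPM in MEF, 50.7 and 47.8 in CFAE+8, 39.9 and 40.6 in CFAE+8+MSC and 43.2 and 45.4 in CFAE+6. The CFAE+8 libraries were the highest, and the change from MEF was 0.98 ± 0.090 (adjusted p = 1.21e-10). Incenp, the scaffold, was the most abundant of the 4 by CPM at 45.05 and 44.5 CPM in MEF, 71.8 and 73.6 in CFAE+8, 70.6 and 76.96 in CFAE+8+MSC and 68.1 and 61.5 in CFAE+6. Its change of 0.70 ± 0.077 (adjusted p = 4.89e-09) was the smallest of the 4 in CFAE+8. Cdca8, which encodes borealin, was at 24.2 and 23.7 CPM in MEF, 44.6 and 39.1 in CFAE+8, 48.1 and 41.96 in CFAE+8+MSC and 41.96 and 41.1 in CFAE+6 and rose by 0.80 ± 0.10 (adjusted p = 4.60e-08).

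The 6 spindle and cytokinesis genes were split, with 3 of 6 rising in each cocktail, where 30.8% to 31.9% of all genes rose. Tpx2, which activates Aurora A and nucleates spindle microtubules, was at 73.6 and 77.7 CPM in MEF, 117 and 112 in CFAE+8, 114 and 112 in CFAE+8+MSC and 107 and 101 in CFAE+6 and rose by 0.60 ± 0.063 (adjusted p = 1.79e-09) in CFAE+8. Hmmr, a spindle protein that is also known as the hyaluronan receptor RHAMM, was at 37.8 and 40.1 CPM in MEF, 63.6 and 59.96 in CFAE+8, 54.9 and 57.1 in CFAE+8+MSC and 63.7 and 59.1 in CFAE+6 and rose by 0.66 ± 0.081 (adjusted p = 2.84e-08). Ect2, which activates RhoA at the cleavage furrow, rose by 0.59 ± 0.11 (adjusted p = 2.49e-05). Its call in CFAE+6 against MEF was lost under DESeq2 (adjusted p = 0.0771) and without MEF replicate 2 or either CFAE+6 library. The other 3 did not pass in CFAE+8. Anln, the anillin gene of the contractile ring, was at 94.1 and 95.99 CPM in MEF, 94.6 and 93.97 in CFAE+8, 101 and 94.1 in CFAE+8+MSC and 87.7 and 81.2 in CFAE+6. The CFAE+8 and MEF libraries lay within the same narrow range, and the change was -0.01 (95% interval -0.14 to 0.12, adjusted p = 0.888). In CFAE+6 Anln fell by 0.17 (adjusted p = 0.0237), a call lost without MEF replicate 1 (adjusted p = 0.0599), MEF replicate 2 (adjusted p = 0.0936) or CFAE+6 replicate 2 (adjusted p = 0.21), and under DESeq2, upper-quartile scaling and a fit to the 2 groups alone. Nusap1, a microtubule-binding protein of the spindle, was at 16.2 and 18.2 CPM in MEF, 18.3 and 17.05 in CFAE+8, 11.1 and 11.9 in CFAE+8+MSC and 17.01 and 13.4 in CFAE+6. Both CFAE+8+MSC libraries lay under all others: the change from MEF was -0.58 ± 0.15 (adjusted p = 0.00121) there and 0.04 (95% interval -0.25 to 0.32, adjusted p = 0.832) in CFAE+8. Prc1, which crosslinks midzone microtubules, had a change of 0.17 (95% interval 0.00 to 0.33, adjusted p = 0.0768) in CFAE+8. Its exons overlap Rccd1 over 11.1% of their length.

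Condensin folds mitotic chromosomes, topoisomerase II alpha untangles them, and Ki-67 coats their surface. Of these 7 genes 6 rose in CFAE+8 (30.8% of all genes) and in CFAE+8+MSC (31.9%) and 5 in CFAE+6 (31.6%), against MEF. Top2a (ENSMUSG00000020914, mm10 chromosome 11, 98992943 to 99024189, reverse strand) was the most abundant member by CPM, at 137 and 132 CPM in MEF, 311 and 311 in CFAE+8, 268 and 269 in CFAE+8+MSC and 236 and 242 in CFAE+6. The 4 groups did not overlap. The change from MEF was 1.21 ± 0.051 (adjusted p = 1.33e-18) in CFAE+8, 1.00 ± 0.051 (adjusted p = 1.65e-16) in CFAE+8+MSC and 0.83 ± 0.051 (adjusted p = 1.40e-14) in CFAE+6. Mki67 (ENSMUSG00000031004, mm10 chromosome 7, 135689784 to 135716361, reverse strand), the gene of the proliferation marker Ki-67, was at 97.6 and 109 CPM in MEF, 178 and 172 in CFAE+8, 126 and 119.6 in CFAE+8+MSC and 99.4 and 96.8 in CFAE+6. It rose by 0.76 ± 0.061 (adjusted p = 6.36e-12) in CFAE+8 and by 0.25 ± 0.063 (adjusted p = 9.60e-04) in CFAE+8+MSC, and its change in CFAE+6 was -0.08 (95% interval -0.21 to 0.06, adjusted p = 0.313). The CFAE+6 libraries fell inside the range of the MEF libraries or just under it. Ncapd2, a regulatory subunit of condensin I, was at 57.6 and 59.8 CPM in MEF, 102 and 101 in CFAE+8, 72.9 and 76.1 in CFAE+8+MSC and 71.6 and 69.4 in CFAE+6 and rose by 0.79 ± 0.067 (adjusted p = 1.91e-11) in CFAE+8. Smc4, an ATPase subunit shared by both condensins, was at 84.1 and 84.3 CPM in MEF, 87.2 and 87.4 in CFAE+8, 87.5 and 91.8 in CFAE+8+MSC and 80.7 and 74.6 in CFAE+6. Its change in CFAE+8 was 0.05 (95% interval -0.08 to 0.19, adjusted p = 0.509), whereas Smc2, the ATPase it pairs with, rose by 0.68 ± 0.083 (adjusted p = 3.78e-08). Ncaph and Ncapg, other condensin I subunits, rose by 1.08 and 0.77, with Ncapg overlapping Lcorl over 13.4% of its exons. Lcorl rose too (1.10, adjusted p = 5.72e-09), so the value for Ncapg is uncertain.

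The APC/C tags cyclin B and securin for destruction, and separase then cuts cohesin. Cdc20 was at 69.8 and 69.6 CPM in MEF, 78.02 and 75.7 in CFAE+8, 77.3 and 80.3 in CFAE+8+MSC and 78.7 and 77.4 in CFAE+6. Its change was 0.14 (95% interval 0.01 to 0.28, adjusted p = 0.0665) in CFAE+8, 0.18 ± 0.067 (adjusted p = 0.0223) in CFAE+8+MSC and 0.16 ± 0.067 (adjusted p = 0.0343) in CFAE+6. The calls in CFAE+8+MSC and CFAE+6 were lost without either MEF library and without CFAE+8+MSC replicate 2 or either CFAE+6 library (adjusted p = 0.0603 to 0.114). Espl1, the separase gene, was at 27.5 and 28.6 CPM in MEF, 54.5 and 58.5 in CFAE+8, 58.3 and 51.8 in CFAE+8+MSC and 52.2 and 45.6 in CFAE+6 and rose by 1.01 ± 0.093 (adjusted p = 1.06e-10) in CFAE+8. Ube2c, the ubiquitin-conjugating enzyme that works with the APC/C and was chosen here after its values were seen, was at 42.3 and 40.9 CPM in MEF, 86.1 and 78.2 in CFAE+8, 86.1 and 80.4 in CFAE+8+MSC and 83.7 and 87.2 in CFAE+6. It was close to level over the 3 cocktails: the change from MEF was 0.98 ± 0.076 (adjusted p = 2.22e-12) in CFAE+8, 1.00 ± 0.076 (adjusted p = 1.42e-12) in CFAE+8+MSC and 1.04 ± 0.075 (adjusted p = 5.68e-13) in CFAE+6. Its exons overlap Tnnc2 over 22.8% of their length, and Tnnc2 had a mean of 0 CPM in MEF and reached 0.0424 in CFAE+8. Foxm1 (ENSMUSG00000001517, mm10 chromosome 6, 128362967 to 128376146, forward strand), the forkhead factor that activates many of these genes in G2, was at 46.5 and 49.3 CPM in MEF, 76.5 and 77.9 in CFAE+8, 60.02 and 60.7 in CFAE+8+MSC and 59.9 and 58.03 in CFAE+6. It rose in all 3 cocktails, by 0.69 ± 0.073 (adjusted p = 2.17e-09) in CFAE+8, 0.33 ± 0.075 (adjusted p = 3.19e-04) in CFAE+8+MSC and 0.30 ± 0.075 (adjusted p = 9.63e-04) in CFAE+6.

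**Figure D3:**
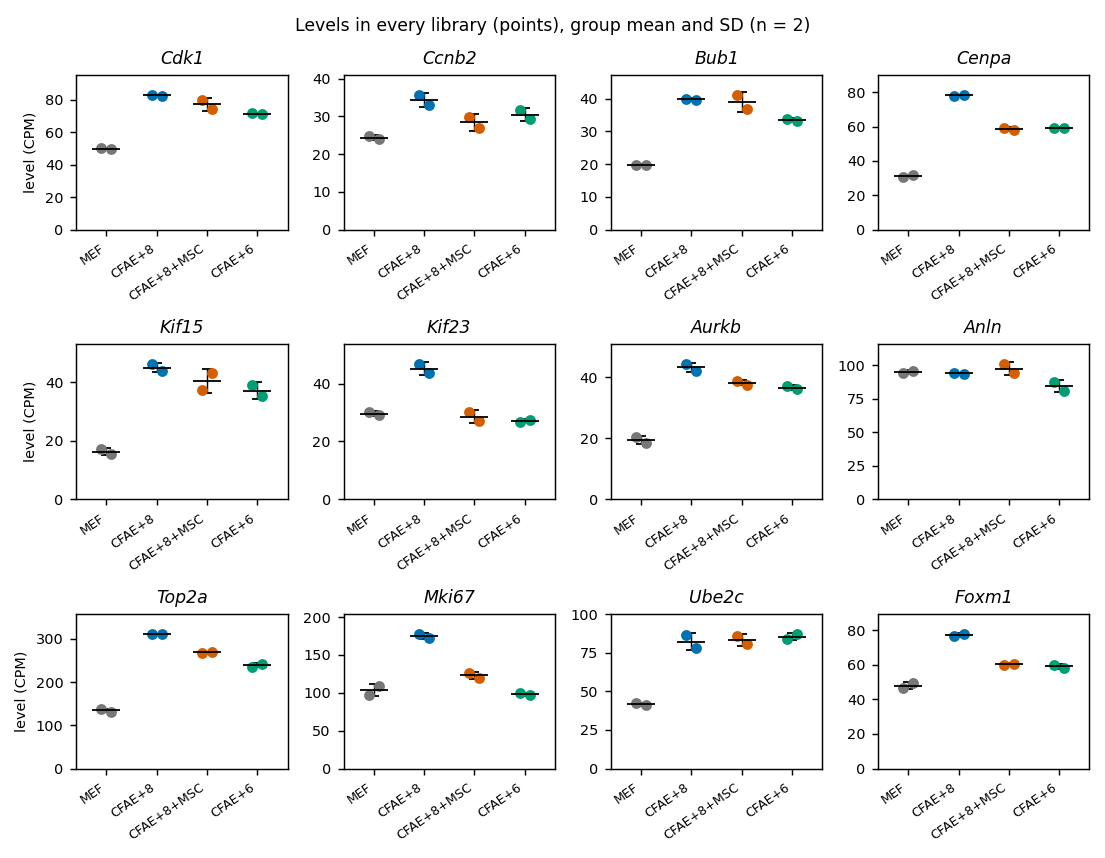
Level in CPM (vertical axes, each starting at 0) of 12 genes in every library (points) of the 4 groups, with the group mean and SD (bars, n = 2). Cenpa, Kif23, Mki67 and Foxm1 peak in CFAE+8, Ube2c is close to level over the cocktails, and Anln lies between 81.2 and 101 CPM throughout.

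Adding MSC2530818 to CFAE+8 asked what inhibition of CDK8 and CDK19 does on top of the cocktail. Against CFAE+8, 0 of the 50 mitotic genes rose and 16 fell, while 15.6% of all genes tested rose and 13.8% fell. The median change was -0.14, beside -0.004 for all genes, and the range was -0.66 (Kif23) to 0.28 (Spc25). In these values, 8 genes fell whichever single library was left out and under DESeq2 as well: Cenpa, Cenpf, Kif23, Nusap1, Ncapd2, Top2a, Mki67 and Foxm1. The share of all genes that met this joint rule was not computed. Kif23 fell by 0.66 ± 0.094 (adjusted p = 2.17e-06), or 1.58-fold, and its CFAE+8+MSC libraries overlapped those of MEF or lay under them. For Nusap1 the change was -0.62 ± 0.15 (adjusted p = 0.00167) and for Mki67 -0.51 ± 0.060 (adjusted p = 9.03e-08). For Ncapd2 it was -0.44 ± 0.064 (adjusted p = 3.22e-06) and for Cenpa -0.42 ± 0.071 (adjusted p = 3.09e-05). The smallest of the 8 was that of Top2a, at -0.21 ± 0.048 (adjusted p = 0.00108). Foxm1 changed by -0.35 ± 0.071 (adjusted p = 2.49e-04) and Cenpf by -0.40 ± 0.086 (adjusted p = 6.94e-04). By role, 5 of the 8 centromere and kinetochore genes, 3 of the 10 kinesins and 3 of the 7 condensin and chromosome structure genes fell, and 0 of the 3 APC/C and separase genes did. Ube2c had a change of 0.02 (95% interval -0.12 to 0.16, adjusted p = 0.871). Spc25, higher by 0.28 (95% interval 0.06 to 0.51, adjusted p = 0.0539), came closest to a rise.

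The other 8 of the 16 lost their call when a single library was left out. Without CFAE+8 replicate 1 the test no longer called Ccnb2, Bub1b, Spc24, Knl1, Kif11, Kif20a and Birc5 (adjusted p = 0.0511 to 0.252), and without CFAE+8 replicate 2 it no longer called Ccnb2, Bub1b, Ndc80, Spc24, Kif11 and Kif20a (adjusted p = 0.0642 to 0.226). Without CFAE+8+MSC replicate 1 the calls of Bub1b, Ndc80, Spc24, Knl1, Kif11, Kif20a and Birc5 (adjusted p = 0.0616 to 0.314) were lost, and without CFAE+8+MSC replicate 2 those of Ccnb2, Kif11 and Kif20a (adjusted p = 0.0912 to 0.279). The count of genes called was 10 without CFAE+8 replicate 1, which includes Kif2c, called only there (-0.37, adjusted p = 0.0188). It was 10 without CFAE+8 replicate 2 and 9 without CFAE+8+MSC replicate 1. Of all genes, 29.3% were called in either direction with every library, and 19.7%, 19.7% and 21.5% without these 3 in the same order. DESeq2 called 8 lower and 0 higher, beside 8.40% and 11.7% of all genes. Of the 50, 5 (Cenpa, Kif23, Nusap1, Ncapd2 and Mki67) fell by more than 1.2-fold in the test against that size. Of all genes, 4.73% fell and 8.36% rose by that test. Epithelial and endothelial marker sums were higher in CFAE+8+MSC than in CFAE+8, as given above, and their part in these falls was not tested.

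Replacing A-83-01 by E-616452 compared 2 inhibitors of the same receptor in the same cocktail, at doses that the labels do not give. In CFAE+6 against CFAE+8, 0 of the 50 genes rose and 21 fell, while 14.3% of all genes tested rose and 12.3% fell. The median was -0.24, beside 0.001 for all genes. The range was -0.83 (Mki67) to 0.21 (Spc25). This comparison shares its CFAE+8 libraries with the one before. Mki67 had the largest fall, -0.83 ± 0.061 (adjusted p = 8.93e-12), or 1.78-fold, and its CFAE+6 libraries lay within or just under the range of the MEF libraries. Kif23 changed by -0.74 ± 0.094 (adjusted p = 4.99e-07) and Cenpf by -0.56 ± 0.087 (adjusted p = 1.22e-05). Knl1 changed by -0.53 ± 0.11 (adjusted p = 5.48e-04) and Ncapd2 by -0.52 ± 0.065 (adjusted p = 2.65e-07). These and Bub1b (-0.37 ± 0.083, adjusted p = 0.0011), Cenpa (-0.40 ± 0.071, adjusted p = 6.10e-05), Top2a (-0.38 ± 0.049, adjusted p = 4.73e-07) and Foxm1 (-0.39 ± 0.071, adjusted p = 9.92e-05) made up the 9 that fell whichever library was left out and under DESeq2. Here too, the share of all genes that met this joint rule was not computed. Nusap1, which fell with MSC2530818, had a change of -0.22 (95% interval -0.50 to 0.07, adjusted p = 0.287) in CFAE+6 against CFAE+8. By role, 5 of 8 centromere and kinetochore genes, 5 of 10 kinesins and 4 of 7 condensin and chromosome structure genes fell, and 0 of 3 APC/C and separase genes did. Ube2c had a change of 0.06 (95% interval -0.08 to 0.20, adjusted p = 0.605).

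**Figure D4:**
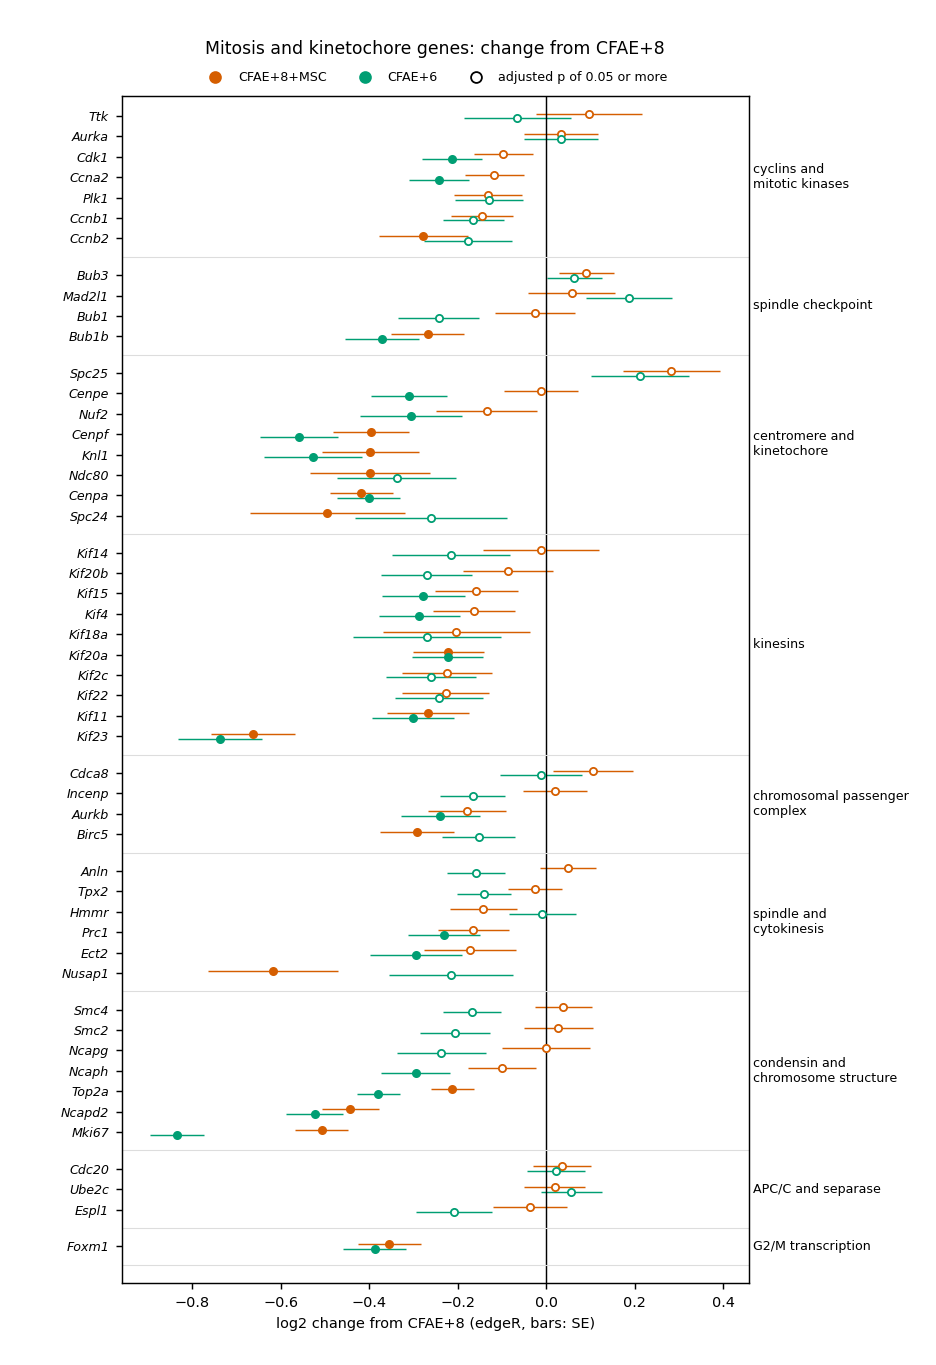
Log2 change from CFAE+8 (horizontal axis) of each of the 50 genes in CFAE+8+MSC (orange) and CFAE+6 (green), with n = 2 libraries per group; both comparisons use the same CFAE+8 libraries. Bars are the SE from edgeR and open points did not pass an adjusted p of 0.05; all filled points lie under 0, the lowest being Mki67 in CFAE+6 at -0.83.

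The remaining 12 of the 21 lost their call without at least 1 library. Without CFAE+8 replicate 2, Cdk1, Ccna2, Cenpe, Nuf2, Kif4, Kif11, Kif15, Kif20a, Aurkb, Prc1 and Ect2 (adjusted p = 0.0719 to 0.515) were no longer called, and without CFAE+8 replicate 1, Cdk1, Nuf2, Kif4, Kif15, Kif20a, Aurkb, Prc1 and Ncaph (adjusted p = 0.0502 to 0.247). Leaving out CFAE+6 replicate 1 ended the calls of Cdk1, Nuf2, Kif4, Aurkb and Ect2 (adjusted p = 0.0635 to 0.421), and leaving out CFAE+6 replicate 2 those of Cdk1, Cenpe, Kif4, Kif11, Kif15, Kif20a, Aurkb, Prc1 and Ect2 (adjusted p = 0.0585 to 0.365). Nuf2 also lost its call without any one MEF or CFAE+8+MSC library, and Aurkb without either CFAE+8+MSC library (adjusted p = 0.051 to 0.0587). The count was 11 without CFAE+8 replicate 2 and 13 without CFAE+6 replicate 2, each including Kif22, which was not called with every library (adjusted p = 0.0486 and 0.0189 without them). Of all genes, 26.6% were called in either direction with every library and 16.8% and 19.8% without these. DESeq2 called 12 lower and 0 higher, beside 7.76% and 10.1% of all genes. Of the 50, 6 (Cenpf, Knl1, Kif23, Ncapd2, Top2a and Mki67) fell by more than 1.2-fold in the test against that size. Of all genes, 3.68% fell and 7.01% rose by that test. The epithelial and endothelial sums and the CDK inhibitors described further on also differed between CFAE+6 and CFAE+8, and their part was not tested.

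Set directly against each other, the cocktail with MSC2530818 and the one with E-616452 left few of these genes past the test. In CFAE+8+MSC against CFAE+6, 5 of the 50 were higher and 0 lower, beside 6.21% and 4.27% of all genes, and the median was 0.09. Mki67 was higher by 0.33 ± 0.063 (adjusted p = 5.99e-04), whichever library was left out. Cenpe was higher by 0.30 ± 0.086 (adjusted p = 0.0226), Anln by 0.21 ± 0.065 (adjusted p = 0.0363), Smc4 by 0.21 ± 0.065 (adjusted p = 0.0397) and Top2a by 0.17 ± 0.049 (adjusted p = 0.0249). Each of these 4 calls was lost without CFAE+8+MSC replicate 1 (adjusted p = 0.0719 to 0.293) and without CFAE+6 replicate 2 (adjusted p = 0.0535 to 0.352). For Smc4 this was so without either CFAE+8 library (adjusted p = 0.0561) or CFAE+8+MSC replicate 2 (adjusted p = 0.232) too. It was so for Anln without CFAE+8 replicate 2 (adjusted p = 0.0503), and for Top2a without CFAE+8+MSC replicate 2 (adjusted p = 0.0943) or CFAE+6 replicate 1 (adjusted p = 0.117). The count of genes called was 1 without CFAE+8+MSC replicate 1, 2 without CFAE+6 replicate 2 (Mki67 higher and Nusap1 lower), and 3 without CFAE+8+MSC replicate 2 or CFAE+8 replicate 2. Leaving out each of these libraries in turn also lowered the share of all genes called in either direction. Whether the smaller counts are particular to the 50 genes was not tested. In the test against 1.2-fold 0 of the 50 passed in either direction, beside 1.23% of all genes higher and 0.575% lower. In the ordinary edgeR test 11 had an unadjusted p under 0.05, beside 22.9% of all genes. DESeq2 called 2 higher (Top2a and Mki67) and 0 lower, beside 5.25% and 2.74% of the genes it tested. Nusap1 was the lowest of the 50, at -0.40 (95% interval -0.71 to -0.10, adjusted p = 0.0877), and at -0.56 (adjusted p = 0.0442) without CFAE+6 replicate 2.

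Around the 50 genes, other genes of mitosis were followed from lists chosen by function, with earlier results of these data known. Levels are given as mean ± SD with n = 2. In CFAE+8 against MEF, 68 of 110 genes tested on these mitosis lists rose and 6 fell, beside 30.8% and 31.3% of all genes. The median of the 110 was 0.46. Among genes of the inner kinetochore and centromere loading 12 of 19 rose and 0 fell (median 0.78). Hjurp, the chaperone that loads Cenpa, was at 58.8 ± 1.11 CPM in MEF against 101 ± 0.1998 in CFAE+8 (log2 change 0.78 ± 0.065, adjusted p = 1.08e-11), and Mis18a, which prepares centromeres for it, at 8.81 ± 0.7603 CPM in MEF against 20.1 ± 1.23 in CFAE+8 (log2 change 1.19 ± 0.14, adjusted p = 2.85e-08). Among outer kinetochore and checkpoint partners 12 of 17 rose and 0 fell (median 0.71). Zwint, a partner of Knl1, was at 135 ± 2.96 CPM in MEF against 238 ± 7.34 in CFAE+8 (log2 change 0.82 ± 0.052, adjusted p = 2.63e-14). Kntc1, the ROD protein of the checkpoint, was at 20.7 ± 0.449 CPM in MEF against 43.1 ± 1.19 in CFAE+8 (log2 change 1.05 ± 0.10, adjusted p = 2.93e-10). Of the genes for entry to mitosis 9 of 13 rose and 0 fell, with Ccna1 and Ccnb3 too low to test. Ccnf, cyclin F, was at 26.3 ± 2.81 CPM in MEF against 56.7 ± 2.87 in CFAE+8 (log2 change 1.11 ± 0.10, adjusted p = 3.43e-11). Bora, which helps Aurora A activate Plk1, was at 12.9 ± 0.3895 CPM in MEF against 31.2 ± 1.54 in CFAE+8 (log2 change 1.27 ± 0.12, adjusted p = 9.20e-11).

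Among condensin II, cohesin and securin genes 11 of 14 rose and 0 fell, including the cohesin subunits Smc1a (0.61) and Rad21 (0.59). Among other spindle, centrosome and cytokinesis genes 12 of 16 rose and 1 fell. Kifc1, a motor that clusters spindle poles, was at 35.1 ± 2.76 CPM in MEF against 75.9 ± 0.376 in CFAE+8 (log2 change 1.11 ± 0.084, adjusted p = 1.59e-12). Spag5, the spindle protein astrin, was at 24.98 ± 2.299 CPM in MEF against 53.3 ± 1.08 in CFAE+8 (log2 change 1.10 ± 0.090, adjusted p = 1.03e-11). The gene that fell was Ckap2, a microtubule-associated spindle protein, at 54.8 ± 4.72 CPM in MEF against 43.1 ± 0.618 in CFAE+8 (log2 change -0.35 ± 0.083, adjusted p = 6.67e-04). Of the APC/C subunits and regulators 5 of 17 rose and 3 fell, beside 30.8% and 31.3% of all genes, and the median was -0.01. Anapc2, the cullin subunit, fell (-0.37 ± 0.055, adjusted p = 9.92e-07). The 2 strongest rises on that list were regulators, not core subunits: Ube2s, which extends ubiquitin chains, was at 86.9 ± 3.18 CPM in MEF against 170.0 ± 0.715 in CFAE+8 (log2 change 0.97 ± 0.058, adjusted p = 7.07e-15), and Fbxo5, the inhibitor Emi1, at 9.900 ± 0.917 CPM in MEF against 23.6 ± 0.107 in CFAE+8 (log2 change 1.25 ± 0.14, adjusted p = 4.41e-09). Fbxo5 fell in CFAE+8+MSC (-0.53 ± 0.13, adjusted p = 0.00163) and in CFAE+6 (-0.55 ± 0.13, adjusted p = 0.0015), both against CFAE+8. On all the other mitosis lists together, 6 of 110 rose and 13 fell with MSC2530818 against CFAE+8, where 15.6% and 13.8% of all genes did. With E-616452 against CFAE+8, 7 rose and 20 fell, where 14.3% and 12.3% of all genes did.

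Among regulators of late cell cycle transcription (the DREAM complex, B-Myb and the E2F factors) 7 of 14 rose and 2 fell. Of all genes, 30.8% rose and 31.3% fell in CFAE+8 against MEF. Mybl2, the B-Myb gene, was at 10.8 ± 2.69 CPM in MEF against 25.2 ± 0.667 in CFAE+8 (log2 change 1.22 ± 0.14, adjusted p = 1.38e-08). E2f1 was at 44.6 ± 0.356 CPM in MEF against 111 ± 3.03 in CFAE+8 (log2 change 1.32 ± 0.070, adjusted p = 3.36e-16). E2f8, a repressor of the family, was at 11.3 ± 2.01 CPM in MEF against 37.4 ± 0.431 in CFAE+8 (log2 change 1.72 ± 0.11, adjusted p = 5.04e-14) and was higher still in CFAE+8+MSC (63.9 ± 1.796) and CFAE+6 (53.2 ± 0.1203), with changes from CFAE+8 of 0.78 ± 0.086 (adjusted p = 2.72e-08) and 0.51 ± 0.087 (adjusted p = 4.17e-05). Rbl2, the pocket protein p130 of the DREAM complex, fell (-0.55 ± 0.10, adjusted p = 4.20e-05). Both overlap other transcripts on the opposite strand, E2f8 over 11.2% and Rbl2 over 21% of exon length. All 17 S-phase genes rose in CFAE+8 against MEF, with a median of 1.02. Mcm3, part of the replicative helicase, changed by 1.43 ± 0.066 (adjusted p = 1.13e-17) and Pcna, the sliding clamp, by 1.34 ± 0.068 (adjusted p = 1.27e-16). Against CFAE+8, 8 of the 17 fell with MSC2530818 (median -0.13) and 7 fell with E-616452 (median -0.21), beside 13.8% and 12.3% of all genes. The CDK inhibitors were mixed: 4 of 7 rose and 2 fell in CFAE+8 against MEF, beside 30.8% and 31.3% of all genes. Cdkn2a, which encodes p16 and Arf, was at 40.4 ± 0.00436, 122 ± 7.63, 109 ± 0.846 and 168 ± 3.44 CPM in MEF, CFAE+8, CFAE+8+MSC and CFAE+6. Its change was 1.59 ± 0.068 (adjusted p = 2.21e-18) in CFAE+8 against MEF and 0.46 ± 0.058 (adjusted p = 3.58e-07) in CFAE+6 against CFAE+8. Cdkn1c, which encodes p57, went the other way in CFAE+8. It was at 93.1 ± 0.281, 57.5 ± 3.21, 90.5 ± 3.15 and 134 ± 11.03 CPM in the same order, and 30.7% of its exon length overlaps a transcript on the opposite strand. Its change was -0.70 ± 0.071 (adjusted p = 1.03e-09) in CFAE+8 against MEF and 1.22 ± 0.069 (adjusted p = 2.41e-14) in CFAE+6 against CFAE+8. Cdkn1a, which encodes p21, rose by 0.19 ± 0.042 (adjusted p = 2.65e-04) in CFAE+8.

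**Figure D5:**
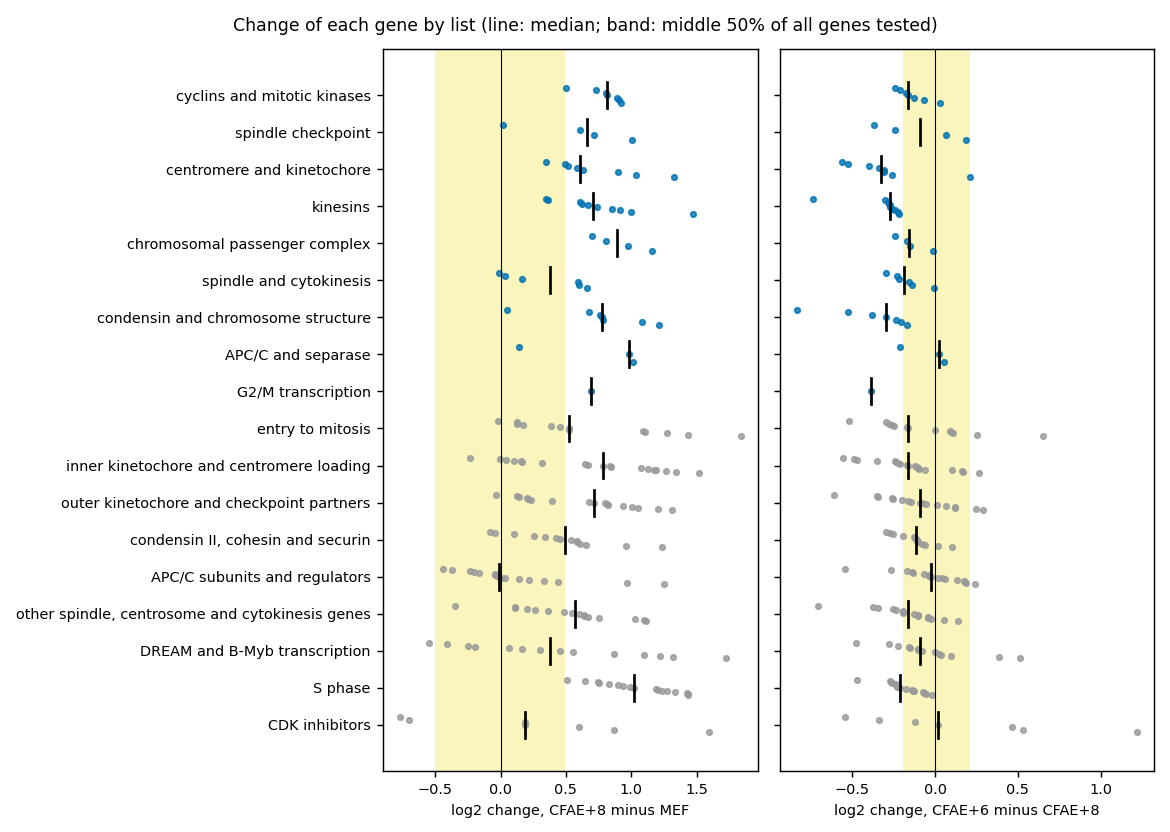
Log2 change of every tested gene by list (points), in CFAE+8 against MEF (left) and in CFAE+6 against CFAE+8 (right), with the 50 genes in blue and the other lists in grey; n = 2 libraries per group. Black bars are list medians and the yellow band is the middle 50% of all genes tested; S-phase genes have the highest median on the left, 1.02, and the APC/C subunits and regulators the lowest, -0.01.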

How the data were processed

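Total RNA was made into libraries with a kit that does not mark strand, per the labels' protocols, so overlapping genes on opposite strands cannot be told apart. Raw counts for each gene were deposited by the authors, with 1 column per library. In the submitters' processing notes, the names given are featureCounts, Subread, DESeq2 and mm10, without versions. Neither the aligner nor the annotation is given in the sources used here. Gene coordinates come from the deposited table (counted from 1). Exon overlaps were taken from GENCODE M21 (54409 of the 54532 identifiers found).

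Groups and replicate numbers came from the sample titles. Genes were followed by symbol and identifier. With R 4.3.3 and edgeR 4.0.16, filterByExpr kept 15470 of 28024 genes with any count and 99.85% of counts. Libraries were scaled with TMM. The quasi-likelihood F test used all 8 libraries and a mean for each group, leaving 4 residual degrees of freedom (common biological coefficient of variation 0.0445). Each SE was the absolute log2 change divided by the root of its F value, with 95% intervals from the t distribution. The 2 libraries of a group differed by more than counting noise (chi-square per degree of freedom 1.89 to 2.74), and none were merged. The script was tested on simulated counts.

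The 50 genes, their roles and the other lists were chosen with earlier results of these data known. Named with the value of every library are, in each role, the gene of highest mean CPM and those with the highest and lowest change in CFAE+8 against MEF and in CFAE+8+MSC against CFAE+8, with Foxm1, Mki67 and the largest calls between cocktails. Ube2c and members given only by their change were chosen after their values were seen. From each other list came the 2 genes with the smallest adjusted p in CFAE+8 against MEF and, of those that fell, the 1 with the smallest adjusted p, with Mybl2 and Cdkn1a.

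Alternatives were DESeq2 1.42.0, its size factors in edgeR, upper-quartile scaling, no filter, a filter of 5 CPM in 2 libraries, a test against 1.2-fold, a fit to the 2 groups compared, the replicate number as a block, and leaving out each library. Of 45 promoter windows from RefSeq, 39 matched the 5′ end of a transcript of the same gene. Printed stretches hold only bases before the RefSeq start of the window. That start can differ from the deposited gene coordinates. At Kif15, Cdk1 and Ube2c, for example, the last printed bases lie inside the gene by the deposited coordinates.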

Additional observations from a re-analysis of the deposited data

How the results depend on the processing

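Of 165 changes of the 50 genes that passed the test over the 6 comparisons, 0 changed sign under any alternative run. In CFAE+8, CFAE+6 and CFAE+8+MSC against MEF, the counts of genes called stayed within 1.5 times the reported 44, 38 and 41 under every alternative, with 42 to 44, 32 to 38 and 38 to 41 when 1 library was left out. Counts between cocktails depended on the method and on single libraries. For CFAE+8+MSC against CFAE+8 (16) DESeq2 gave 8, the test against 1.2-fold gave 5, and leaving out 1 library gave 9 to 16. For CFAE+6 against CFAE+8 (21) these gave 12, 6, and 11 to 21. For CFAE+8+MSC against CFAE+6 (5) they gave 2, 0, and 1 to 5 (3 without CFAE+8 replicate 2 or CFAE+8+MSC replicate 2, 1 without CFAE+8+MSC replicate 1 and 2 without CFAE+6 replicate 2), and a fit to those 2 groups gave 2. In that test against 1.2-fold, fewer genes can pass by construction; elsewhere the cause was not tested. Reported changes near 0 turned sign when 1 library was left out: -0.048 to 0.085 for Bub3 (negative without MEF replicate 2) and -0.043 to 0.12 for Nusap1 (negative without MEF replicate 1 or, at -0.0079, CFAE+8 replicate 1) in CFAE+8 against MEF, -0.15 to 0.0014 for Mki67 in CFAE+6 against MEF (positive without MEF replicate 2), and -0.13 to 0.030 for Kif23 in CFAE+8+MSC against MEF (positive without CFAE+8+MSC replicate 2). For Ube2c the range was -0.045 to 0.094 in CFAE+8+MSC (negative without CFAE+8 replicate 2 or, at -0.028, CFAE+8+MSC replicate 1) and -0.010 to 0.13 in CFAE+6 (negative without CFAE+8 replicate 2), against CFAE+8. Anln in CFAE+8 against MEF was 0.027 with upper-quartile scaling. With the replicate number as a block, 44, 38, 41, 16, 23 and 6 genes were called, in the order of the comparisons above, with 0 calls lost. Same-numbered libraries did not deviate together (correlations of -0.021 to 0.0512) and the labels give them no shared origin. Some changes given as not passing did pass under another setting: Prc1 and Cdc20 in CFAE+8 against MEF, Ccnb2 in CFAE+8+MSC against MEF, Spc25 in CFAE+8+MSC against CFAE+8 and Nusap1 in CFAE+8+MSC against CFAE+6. So did 13 of 119 others of the 50 genes. The depth was 10958430 to 11913143 counts per library with 2 libraries per group, and its effect on the calls was not tested.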
